A study of Mus musculus with 11 samples.

Results

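The genes described here encode 7 leucine-rich repeat (LRR) membrane proteins, Lrrn1, Lrrn3, Flrt2, Flrt3, Lrig1, Lrig3 and Slitrk2. They were taken by symbol from the 13720 genes of the deposited table, and all 7 were present. The choice was made with the difference between mutant and wild-type buds already known, so that difference is described below for these genes and is not used as a test. RNA came from hindlimb (HL) buds of mouse embryos at E10, with both HLs of 1 embryo in each library. There were 5 WT embryos and 6 in which Meis1 and Meis2 were knocked out (M1KO;M2KO, written KO for single libraries). An Ovation set (WT S_252, WT S_254, KO S_258, KO S_280 and KO S_284) and a NEBNext set (WT 1, WT 3, WT 4, KO 2, KO 3 and KO 4) differed in library preparation.

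In the Ovation set the genotype labels were M1wtM2wt for WT S_252, M1hetM2wt for WT S_254, which therefore carried 1 mutant Meis1 allele, and M1koM2ko for the KO embryos. Both WT embryos of that set were female and came from litter 1, and its KO embryos were male, from litters 1, 3 and 4, so sex and genotype cannot be told apart there. Somite numbers ran from 30 to 33 in the Ovation set and were about 30 to 31 in the NEBNext set, whose labels give neither sex nor litter. The NEBNext KO embryos were labelled HoxB6CreER;Meis1Ko;Meis2KO and the controls WT. According to the methods, Cre removed a floxed part of Meis2, while for Meis1 either a floxed or a constitutive null allele was used. HoxB6CreER, induced by 4-hydroxy-tamoxifen, is active in lateral plate cells, including those of the HL. Cells outside that lineage, ectoderm among them, may thus keep Meis2 in a KO sample.

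LRRs are short repeated segments that stack into a curved domain suited to binding other proteins. Lrrn proteins carry immunoglobulin and fibronectin domains beside the repeats and are best known from the nervous system. Flrt proteins bind Unc5 receptors, latrophilins and teneurins on neighbouring cells and associate with FGF receptors, and Flrt3 promotes FGF signalling in Xenopus. Lrig proteins act on receptor tyrosine kinases, and Lrig1 lowers the amount of ErbB receptors. Slitrk proteins bind LAR-type receptor phosphatases and are known from synapses. Together these families serve adhesion, guidance and the tuning of growth factor receptors.

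In the GRCm38 build Lrrn1 lies on chromosome 6 (107529768 to 107570214), Lrig1 on chromosome 6 (94604529 to 94700158), Lrrn3 on chromosome 12 (41451668 to 41486431), Flrt2 on chromosome 12 (95692226 to 95785215), Flrt3 on chromosome 2 (140650914 to 140671469), Lrig3 on chromosome 10 (125966168 to 126015359) and Slitrk2 on chromosome X (66649318 to 66661393). Lrrn3 lies within Immp2l on the opposite strand, and Flrt3 within Macrod2 on the opposite strand, in both cases with 0 shared exon bases. Lrig1 shares 144 exon bases at its 3′ end with Slc25a26 on the opposite strand. Whether strand was used in counting is not given in the sources used here, so reads in those 144 bases cannot be assigned with certainty.

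RefSeq start sites on GRCm38.p6 were at hand for 6 of the 7 genes, with 7 windows of 250 bases upstream. The windows of Slitrk2 and Flrt2, which had higher levels in the mutant, are shown beside that of Flrt3, the paralog of Flrt2. The Slitrk2 window shown, that of its upstream start, is at chrX:66649068-66649317 on the plus strand. Flrt2 is at chr12:95691976-95692225 on the plus strand and Flrt3 at chr2:140671477-140671726 on the minus strand. Another Slitrk2 window, of a downstream start (chrX:66652909-66653158, 61.6% G and C, 15 CpG pairs), is not shown and held no match to the motifs searched. Each is written 5′ to 3′ up to the base before the start site, with matches to TGACAG, the hexamer that Meis proteins bind, in capitals.
Slitrk2: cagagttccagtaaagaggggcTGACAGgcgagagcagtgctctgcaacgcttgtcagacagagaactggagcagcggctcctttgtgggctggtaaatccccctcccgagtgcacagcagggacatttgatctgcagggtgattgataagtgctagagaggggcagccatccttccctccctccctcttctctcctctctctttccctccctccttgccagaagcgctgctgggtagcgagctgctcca
Flrt2: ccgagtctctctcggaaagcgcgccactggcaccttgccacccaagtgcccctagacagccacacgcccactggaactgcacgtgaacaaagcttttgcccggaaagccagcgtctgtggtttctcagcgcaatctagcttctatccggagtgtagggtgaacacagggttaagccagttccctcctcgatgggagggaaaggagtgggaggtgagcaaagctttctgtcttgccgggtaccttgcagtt
Flrt3: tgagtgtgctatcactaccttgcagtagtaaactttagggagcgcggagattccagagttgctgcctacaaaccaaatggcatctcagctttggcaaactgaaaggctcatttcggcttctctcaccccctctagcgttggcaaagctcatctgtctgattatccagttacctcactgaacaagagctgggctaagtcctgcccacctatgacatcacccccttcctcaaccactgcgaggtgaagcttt

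Searched on both strands, TGACAG was found in 1 of the 7 windows, that of the upstream Slitrk2 start, where it begins 228 bases before the start site. It occurs in 15.9% of all 32851 RefSeq windows of this length. The Pbx-Hox octamer TGATNNAT was found in 2 windows, that same Slitrk2 window and that of Lrig3, against 7.68% of all windows, and the T-box hexamer AGGTGT in 0 of 7, against 11.8%. These are matches of letters and not measured sites. The Lrrn1, Lrig1 and Lrig3 windows were rich in G and C (66.0% to 71.6%, with 20 to 27 CpG pairs), and that of Flrt3 was at 50.0% with 5 CpG pairs, where the median of all windows was 52.4% with 6.

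Across the series, 12996 genes passed the filter of 1 CPM (read counts relative to the library total, here batch-corrected) in at least 4 libraries, and all 7 genes were among them. Slitrk2 passed through the KO group, being at 1 CPM or more in 7 libraries, the 6 KO libraries and WT 3, so its place among the tested genes itself depended on the difference. The targeted genes were at similar levels in both groups, Meis1 between 106 and 150 CPM across WT and between 110 and 158 CPM across KO libraries, and Meis2 between 180 and 239 CPM across WT and between 176 and 285 CPM across KO libraries, which does not show whether exon 3 of Meis2 had been removed. The limb mesenchyme markers were all present (Prrx1 at 347 CPM or more in every library). On the second principal component, with 16.5% of the variance, WT 3 stood apart from the other libraries. WT 3 also had the highest WT value for 5 of the 7 genes (Lrrn1, Flrt2, Lrig1, Lrig3 and Slitrk2) and the lowest for Flrt3. Among KO libraries, KO 4 had the lowest value for 5 (Lrrn1, Flrt2, Flrt3, Lrig3 and Slitrk2), and KO S_284 the highest for 4 (Lrrn1, Lrig1, Lrig3 and Slitrk2).

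Per kilobase of annotated exon, the genes covered a wide range of levels in WT buds. Flrt3 was by far the most abundant, at 21.8 ± 1.07 CPM per kb in WT (SD, n = 5), and its lowest WT library (20.8) lay above the highest of every other gene of the 7. Flrt2 followed at 3.59 ± 0.276, then Lrig1 at 2.24 ± 1.63, Lrig3 at 1.92 ± 0.366, Lrrn3 at 1.57 ± 0.682 and Lrrn1 at 1.15 ± 0.800 CPM per kb. The WT ranges of these last 4 genes overlapped, and that of Lrig1 (0.879 to 4.91) also took in the whole Flrt2 range. Slitrk2 was lowest, at 0.0795 ± 0.0645 CPM per kb, below every WT value of the other genes. In KO buds the order of means differed, with Lrrn3 at 10.1 ± 4.18 CPM per kb (SD, n = 6) next below Flrt3 at 24.5 ± 3.53, although the KO ranges of Lrrn3 (3.49 to 15.5) and Flrt2 (4.51 to 8.38) overlapped.

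**Figure D1:**
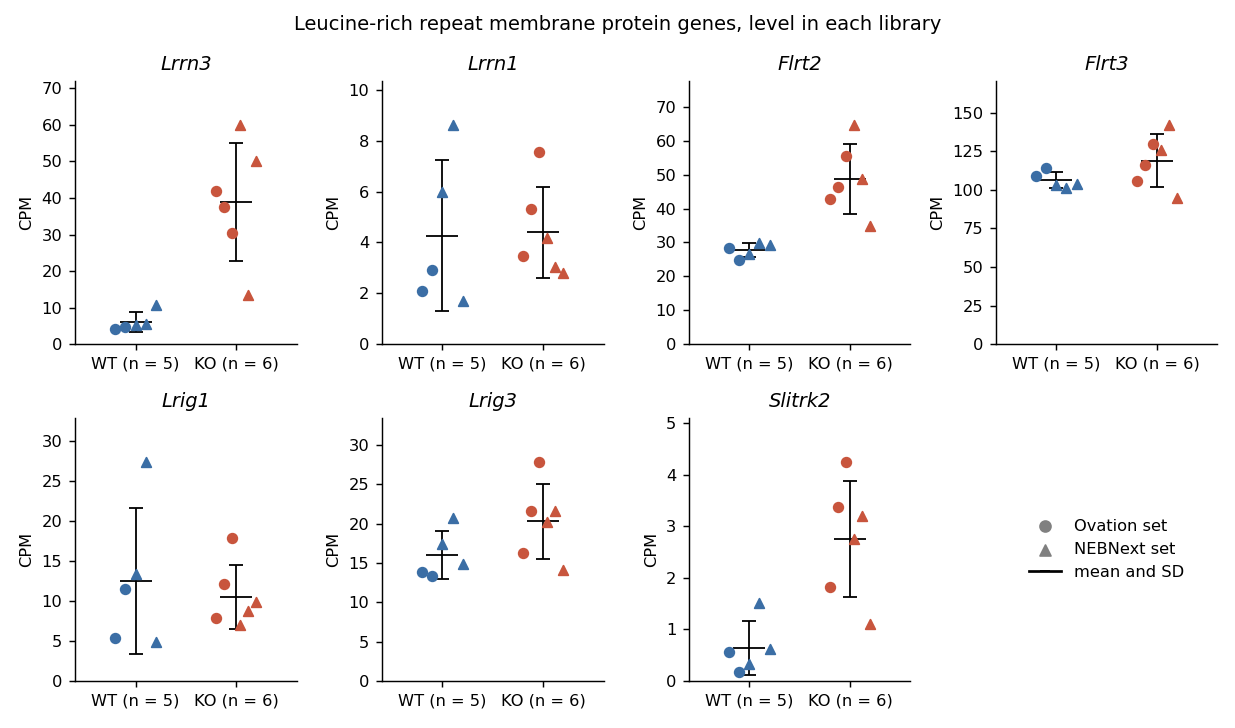
Level of each of the 7 genes in every library, in CPM on a linear axis from 0. Circles are Ovation and triangles NEBNext libraries, blue is WT (n = 5) and red is KO (n = 6), and black bars give the mean and SD of each group. For Lrrn3 and Flrt2 all 6 KO libraries lie above all 5 WT libraries, for Slitrk2 this holds for 5 of 6, and for Lrrn1 and Lrig1 the groups overlap fully.

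In M1KO;M2KO buds, Lrrn3, Slitrk2 and Flrt2 were higher, though for Slitrk2 KO 4 lay below WT 3. The groups of the other 4 genes overlapped as well. By limma's adjusted p under 0.05 over all genes, these 3 of the 7 were called as higher and 0 as lower, where 1.04% of 12996 tested genes were called as higher and 2.09% in either direction. Since the genes were chosen on this contrast, nothing is read from that count. The groups did not overlap for Lrrn3 and Flrt2, and 1.82% of tested genes had every KO library above every WT library. The median log2 fold change (FC) of the 7 genes was 0.32, beside 0.00 over all genes. In these bulk samples more RNA per cell and more cells that hold it cannot be told apart.

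Lrrn3, a neuronal LRR protein, was low in WT and at intermediate levels in KO. In WT it was at 4.06 CPM (WT S_252), 4.73 CPM (WT S_254), 5.28 CPM (WT 1), 5.62 CPM (WT 3) and 10.7 CPM (WT 4). In KO it was at 41.9 CPM (KO S_258), 37.6 CPM (KO S_280), 30.3 CPM (KO S_284), 60.0 CPM (KO 2), 13.5 CPM (KO 3) and 50.2 CPM (KO 4). Of the KO libraries, 5 lay at 30.3 CPM or more, and KO 3 lay just above WT 4, the highest WT library. The fitted log2 FC, on the scale of CPM + 0.5, was 2.55 (SE 0.33), a 5.85-fold difference. It was 2.91 (SE 0.21) in the Ovation set alone and 2.26 (SE 0.48) in the NEBNext set alone, where the 3 KO libraries spanned a 4.44-fold range.

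Immp2l, the gene around Lrrn3, which encodes a mitochondrial inner membrane peptidase subunit, was between 0.859 and 2.08 CPM across WT and between 0.372 and 2.39 CPM across KO libraries, with a log2 FC of -0.21 (SE 0.34, limma adjusted p = 0.856). Immp2l was also the 1 gene of the table whose start lay within 500 kb of that of Lrrn3. Over all 7 genes there were 6 such neighbours, and 0 of 6 passed limma's test (adjusted p from 0.158 for Magi1, near Lrig1, to 0.895 for Slc25a26), with 1 of 6 (Magi1) at an unadjusted p under 0.05. Macrod2, the gene around Flrt3, was between 3.94 and 5.79 CPM across WT and between 3.69 and 6.06 CPM across KO libraries (log2 FC 0.10, adjusted p = 0.861).

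Lrrn1, the paralog of Lrrn3, had a similar mean in both groups and a wide spread among libraries. It was at 2.11 CPM (WT S_252), 2.92 CPM (WT S_254), 5.99 CPM (WT 1), 8.62 CPM (WT 3) and 1.70 CPM (WT 4), and in KO it ranged from 2.80 CPM (KO 4) over a median of 3.83 CPM to 7.55 CPM (KO S_284). All 6 KO libraries lay within the WT range. From the fit, the log2 FC was 0.18 (SE 0.37), with 0.94 (SE 0.36) in the Ovation set and -0.42 (SE 0.46) in the NEBNext set, so its sign depended on the set. The difference between the sets, a contrast that the choice of genes did not use, did not pass limma's interaction test (-1.35, SE 0.67, adjusted p = 0.420). Lrrn2 is not in the table, and Lrrn4 was between 0.333 and 7.87 CPM across WT and between 1.31 and 2.64 CPM across KO libraries (log2 FC -0.08, adjusted p = 0.971).

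Flrt2, a ligand of Unc5 receptors, was higher in every KO library with a narrow spread in WT. It was at 28.4 CPM (WT S_252), 24.7 CPM (WT S_254), 26.5 CPM (WT 1), 30.0 CPM (WT 3) and 29.2 CPM (WT 4). In KO it was at 42.7 CPM (KO S_258), 46.5 CPM (KO S_280), 55.4 CPM (KO S_284), 64.7 CPM (KO 2), 48.6 CPM (KO 3) and 34.8 CPM (KO 4). WT libraries thus spanned 1.21-fold and KO libraries 1.86-fold, with a gap between the groups. The fitted log2 FC was 0.78 (SE 0.13), a 1.72-fold difference, with 0.84 (SE 0.16) in the Ovation set and 0.74 (SE 0.19) in the NEBNext set.

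Flrt3 had the highest level per kilobase of the 7 genes and close group means. It was at 109 CPM (WT S_252), 114 CPM (WT S_254), 103 CPM (WT 1), 101 CPM (WT 3) and 104 CPM (WT 4), and in KO from 94.7 CPM (KO 4) over a median of 121 CPM to 142 CPM (KO 3). Of the KO libraries, 4 lay above every WT library and 1 below, and the coefficient of variation was 4.88% in WT and 14.4% in KO. From the fit, the log2 FC was 0.15 (SE 0.10). Flrt1 is not in the table. In KO 4 both Flrt genes were at their KO minimum, whereas KO 2 was highest for Flrt2 and KO 3 for Flrt3.

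Slitrk2, a synaptic LRR protein, was close to the lower limit of the table in WT. It was at 0.561 CPM (WT S_252), 0.181 CPM (WT S_254), 0.334 CPM (WT 1), 1.52 CPM (WT 3) and 0.617 CPM (WT 4). In KO it was at 1.83 CPM (KO S_258), 3.37 CPM (KO S_280), 4.25 CPM (KO S_284), 2.74 CPM (KO 2), 3.19 CPM (KO 3) and 1.11 CPM (KO 4). KO 4 lay below WT 3, and the other 5 KO libraries lay above all WT libraries. The fitted log2 FC was 1.53 (SE 0.34), or 2.88-fold, and the pseudocount makes this smaller than the 4.28-fold ratio of the group means. Of 11 fits that each left out 1 library, 3 kept its call (without WT 3, KO S_258 or KO 4), and it was lost in the other 8. Nothing is read from these calls, since the choice of genes used this contrast.

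Slitrk2 is X-linked, and in the Ovation set the WT embryos were female and the KO embryos male. Xist, which is transcribed from the inactive X in female cells, was at 1172 CPM (WT S_252), 1123 CPM (WT S_254), 1667 CPM (WT 1), 1435 CPM (KO 3) and 1402 CPM (KO 4), and at 30.9 CPM or less in the other 6 libraries. Slitrk2 was at 3.19 CPM in KO 3 and 1.11 CPM in KO 4, and the part of sex in its level was not tested. The log2 FC of Slitrk2 was 2.04 in the Ovation set, where all KO embryos were male, and 1.12 in the NEBNext set. That difference did not pass the interaction test (-0.92, SE 0.66, adjusted p = 0.596).

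Lrig1, which lowers ErbB receptors, varied more among WT embryos than between the groups. It was at 5.38 CPM (WT S_252), 11.5 CPM (WT S_254), 13.4 CPM (WT 1), 27.4 CPM (WT 3) and 4.91 CPM (WT 4), a 5.59-fold range, and in KO from 6.94 CPM (KO 2) over a median of 9.26 CPM to 17.9 CPM (KO S_284). All KO libraries lay within the WT range. From the fit, the log2 FC was -0.04 (SE 0.38), with 0.57 (SE 0.38) in the Ovation set and -0.52 (SE 0.47) in the NEBNext set, a difference that did not pass (adjusted p = 0.562). Without WT 3 the log2 FC was 0.30, and without WT S_252 it was -0.33.

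Lrig3 was at 13.9 CPM (WT S_252), 13.3 CPM (WT S_254), 17.4 CPM (WT 1), 20.7 CPM (WT 3) and 14.9 CPM (WT 4), and in KO from 14.1 CPM (KO 4) over a median of 20.9 CPM to 27.9 CPM (KO S_284). The groups overlapped, with 3 of 6 KO libraries above every WT library. The fitted log2 FC was 0.32 (SE 0.17), with 0.64 (SE 0.23) in the Ovation set and 0.07 (SE 0.19) in the NEBNext set. Lrig2, the other member of this family, was steady between 42.9 and 49.4 CPM across WT and between 43.9 and 51.9 CPM across KO libraries (log2 FC 0.04, adjusted p = 0.855). Per kilobase Lrig2 was at 3.93 ± 0.210 CPM in WT, above the Lrig3 range. In no gene of the 7 did the mutant difference pass the test of a difference between the sets (adjusted p from 0.420 to 0.917), where limma called 0 of 12996 genes (0%) and 1694 had an unadjusted p under 0.05.

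**Figure D2:**
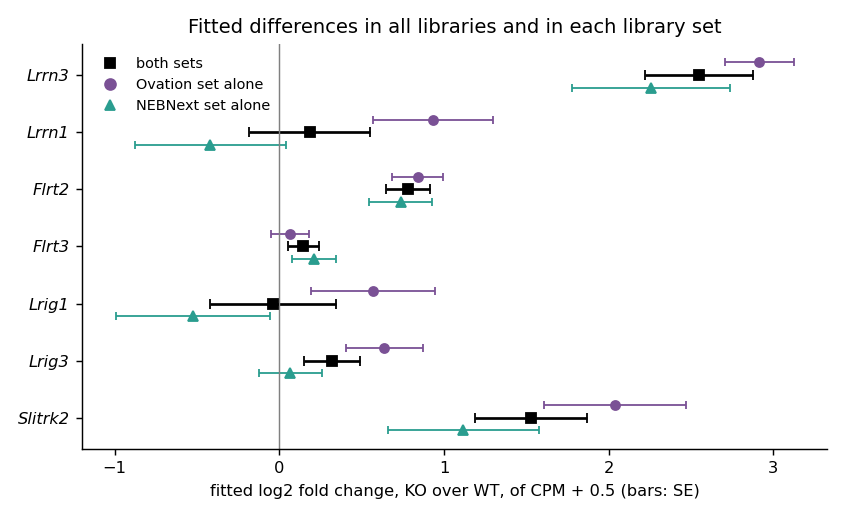
Fitted log2 FC of KO over WT on the CPM + 0.5 scale for each gene, with bars giving the SE. Black squares use all 11 libraries, purple circles the Ovation set alone (2 WT, 3 KO) and green triangles the NEBNext set alone (3 WT, 3 KO). Lrrn3 (2.91 and 2.26) and Flrt2 (0.84 and 0.74) lie above 0 in both sets, whereas Lrrn1 and Lrig1 lie on opposite sides of 0 in the 2 sets.

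Among WT libraries, the spread of Lrrn1 and Lrig1 ran beside that of somite and muscle precursor markers. The 6 markers in the table were Pax3, Myf5, Tcf15, Meox1, Pax1 and Pax7, and Lbx1 is not in it. Their summed level was 15.8 CPM in WT 4, 18.3 CPM in WT S_252 and 24.3 CPM in WT S_254. It was 41.5 CPM in WT 1 and 80.8 CPM in WT 3. Lrrn1 and Lrig1 put the 5 WT libraries in exactly this order, and in KO neither gene kept the order of the sum. Meox1 weighed most in the sum, at 21.8 ± 16.5 CPM in WT, followed by Pax3 at 8.42 ± 5.46 CPM. In KO the sum ranged from 10.2 CPM (KO 2) over a median of 19.7 CPM to 58.2 CPM (KO S_284), and KO S_284 was again highest for both genes, while KO 4, next in the sum at 39.0 CPM, was lowest for Lrrn1. The order of Lrrn3 in WT differed, since WT 4 was its highest WT library. The part of tissue carried over from the somites in these levels was not tested.

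**Figure D3:**
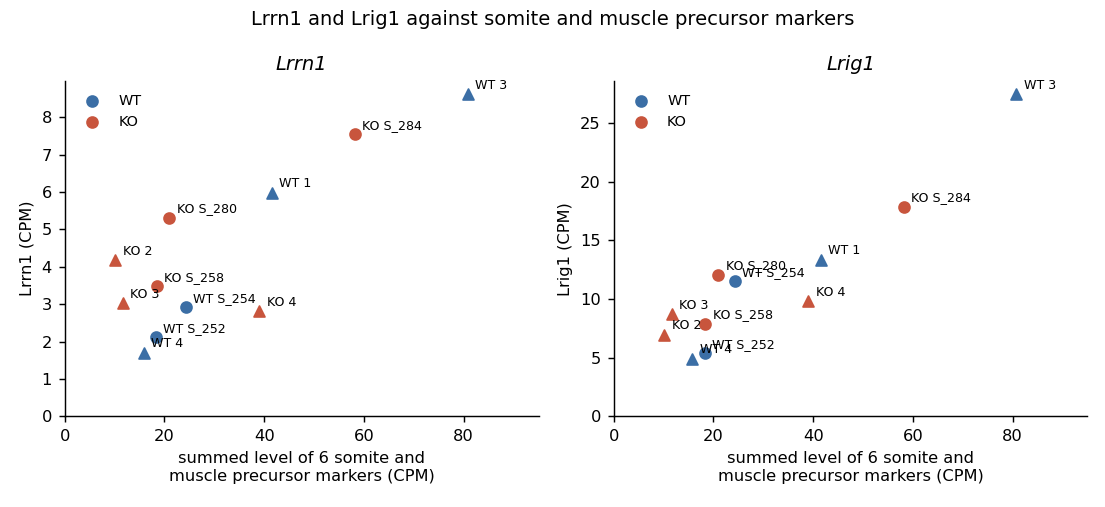
Lrrn1 (left) and Lrig1 (right) in CPM against the summed CPM of 6 somite and muscle precursor markers, with 1 point a library. Blue is WT and red is KO, circles are Ovation and triangles NEBNext libraries. WT 3, at a sum of 80.8 CPM, is highest on both axes in both panels, followed by KO S_284 at 58.2 CPM.

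Markers of nervous tissue, in which several of these proteins are best known, were low. Of 11 neuronal markers, Elavl3, Stmn2, Sox2, Neurog1 and Neurod1 are not in the table. The other 6 summed to 10.4 to 18.3 CPM across WT and 6.52 to 12.1 CPM across KO libraries. All 6 had a log2 FC below 0, with 0 of 6 called by limma and 2 of 6 at an unadjusted p under 0.05 (Pou4f1 and Tubb3, which reached 1 CPM in WT libraries only). Of 8 neural crest and glial markers 4 are in the table, and Sox10 and Foxd3 are not. These 4 summed to 11.2 to 21.1 CPM across WT and 15.7 to 23.2 CPM across KO libraries. Of these 4, Fabp7 had means of 0.161 ± 0.119 CPM for WT and 1.31 ± 0.604 CPM for KO, and Gfra3 of 0.828 ± 0.690 CPM for WT and 2.88 ± 0.789 CPM for KO. Both passed the filter through the KO group, as Slitrk2 did, so nothing is read from their calls as higher. The part of such cells in the levels of Lrrn3, Slitrk2 and Flrt2 was not tested. Surface ectoderm markers summed to between 242 and 322 CPM across WT and between 199 and 341 CPM across KO libraries.

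Genes with the most similar profile over the 11 libraries were found by the root mean square difference of mean-centred log2(CPM + 0.5) values, which uses the contrast on which the 7 genes were chosen and is a description only. Among the nearest to Lrrn3 were Evx1os (0.57 on the log2 scale) and Foxf2 (0.71), where Lrrn3 itself varied by 1.39 about its mean. Nearest to Slitrk2 were Gfra3 (0.40), the Eph receptor Epha3 (0.41) and Mn1 (0.42). Epha3 was between 10.9 and 19.6 CPM across WT and between 28.1 and 80.2 CPM across KO libraries.

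Flrt2 was closest to Cfap69 (0.14), Foxp2 (0.15) and Natd1 (0.16). Foxp2, a forkhead factor, was between 17.5 and 21.5 CPM across WT and between 25.2 and 40.3 CPM across KO libraries. Flrt3 was closest to Tmtc4 (0.07), Tmem18 (0.07) and Parpbp (0.08), and Lrig3 to Dyrk1b, Fzd2 and Gab2 (0.16 each). Lrrn1 was closest to Maf (0.27), Rab3a (0.30) and Myct1 (0.31), and Lrig1 to Rab3a (0.34), Acbd4 (0.35) and Abi3bp (0.37). Of the 21 pairs among the 7 genes, Flrt3 with Lrig3 differed least (0.25), followed by Lrrn1 with Lrig1 (0.31) and Flrt2 with Lrig3 (0.31), and Lrrn3 with Lrig1 differed most (1.61). This measure is small for any genes that vary little. Flrt3 itself varied by only 0.17 about its mean, Lrig3 by 0.32 and Flrt2 by 0.44, beside 0.63 for Lrrn1 and 0.67 for Lrig1. The small difference of Flrt3 and Lrig3 is therefore not read as a shared profile.

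Other LRR membrane genes were examined as the wider family, which the choice of the 7 genes had left out. Of 47 listed genes 23 are in the table and 20 passed the filter. Limma called 0 of 20, and the median log2 FC was -0.17, beside 0.00 over all genes. The 7 genes had been set apart with the contrast known, so genes that differ may already be missing from this list. Nothing is therefore read from its count or its median. An unadjusted p under 0.05 was found for 4 of 20, near the share over all genes (1916 of 12996), so these 4 are given as values only. They were Amigo2 (3.45 ± 1.11 CPM in WT and 6.63 ± 2.12 CPM in KO, adjusted p = 0.108), Slitrk4 (3.18 ± 0.991 and 1.80 ± 0.262 CPM, adjusted p = 0.156), Lrfn4 (12.8 ± 1.43 and 9.88 ± 0.677 CPM, adjusted p = 0.160) and Lrrtm4 (1.78 ± 0.598 and 0.950 ± 0.529 CPM, adjusted p = 0.296). Amigo2 is a neuronal adhesion protein, and Slitrk4 an X-linked relative of Slitrk2. Slitrk6, called as lower in the Ovation set alone, was the most abundant Slitrk gene per kilobase, with 13.6 ± 5.36 CPM per kb for WT and 8.88 ± 5.17 CPM per kb for KO (adjusted p = 0.376).

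Among known binding partners, FLRT partners included 2 genes that rose and LRIG partners 1 that fell. Of 12 tested FLRT partners, Tenm3, a teneurin, rose from 113 ± 10.8 CPM in WT to 166 ± 23.3 CPM, a log2 FC of 0.55 (SE 0.10, limma adjusted p = 0.0130), with every KO library (136 to 196 CPM) above every WT library (101 to 129 CPM). Robo1, a Slit receptor that binds Flrt3, rose from 55.1 ± 4.13 CPM in WT to 76.2 ± 10.3 CPM, a log2 FC of 0.46 (SE 0.10, adjusted p = 0.0287), again without overlap. Of all tested genes, 1.04% were called as higher and 1.82% had every KO library above every WT library. The Unc5 receptors Unc5d and Unc5c did not pass, with WT and KO medians of 0.645 and 1.45 CPM for Unc5d (adjusted p = 0.0555, at 1 CPM or more in KO libraries only) and of 64.5 and 109 CPM for Unc5c (adjusted p = 0.0962). The median log2 FC of the 12 was 0.51, with 8 above 0 and 4 below 0. Those below 0 were the latrophilins Adgrl2 (-0.25) and Adgrl3 (-0.51), Unc5b (-0.18) and Fgfr1 (-0.16), and 0 of the 12 were called as lower. By limma, 9 of 12 FLRT partners and 2 of 8 LRIG partners had an unadjusted p under 0.05, beside 1916 of 12996 genes. The 9 include genes on both sides of 0. These lists were chosen with earlier results of these data known, so the counts are given as values only. Without WT S_252 the call of Tenm3 was lost (adjusted p = 0.0501), and that of Robo1 was lost without WT S_252, WT S_254, WT 1, KO S_258, KO S_284 or KO 2 (up to 0.102).

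Egfr, an ErbB receptor that Lrig1 acts on, fell from 15.9 ± 1.13 CPM in WT to 7.16 ± 2.24 CPM, a log2 FC of -1.16 (SE 0.18, limma adjusted p = 0.00592). All KO libraries (5.07 to 10.2 CPM) lay below all WT libraries (14.4 to 17.5 CPM), as did 1.67% of tested genes, and the call was kept in all 11 fits without 1 library (adjusted p up to 0.0266). The other 7 LRIG partners did not pass, among them Gfra1 (adjusted p = 0.101), Ret (adjusted p = 0.405) and Erbb2 (adjusted p = 0.424). Of 3 LAR-type phosphatases that bind Slitrk proteins 0 passed, with Ptprd alone at an unadjusted p under 0.05, with means of 58.7 ± 4.62 CPM for WT and 71.2 ± 5.69 CPM for KO (adjusted p = 0.0990). Over the 23 tested partners together 2 rose and 1 fell, where 1.04% of all tested genes were called as higher and 1.05% as lower. Within the sets, the log2 FC of Tenm3, Robo1 and Egfr was 0.59, 0.61 and -1.15 in the Ovation set and 0.52, 0.34 and -1.17 in the NEBNext set, each without passing limma's test there (adjusted p from 0.0517 to 0.343). The number called was 1 without WT S_252, 5 without WT 4 and 7 without KO 3, when Ret, Robo2, Tenm4 and Unc5c were called too.

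FGF feedback genes were followed because Flrt proteins associate with FGF receptors. Of 10 tested, 7 fell and 0 rose, where 1.05% of all tested genes were called as lower, with a median log2 FC of -0.86. Spry4, a feedback inhibitor, fell from 42.4 ± 2.59 to 16.0 ± 5.93 CPM (adjusted p = 0.00560), and Dusp6, an ERK phosphatase, from 217 ± 15.8 to 105 ± 30.7 CPM (adjusted p = 0.00592). Over the same libraries Flrt3 was between 101 and 114 CPM across WT and between 94.7 and 142 CPM across KO libraries. Flrt2, in contrast, was between 24.7 and 30.0 CPM across WT and between 34.8 and 64.7 CPM across KO libraries. The study reported Fgf8 and Fgf10 as downregulated in the mutant HL buds, and the feedback list was chosen with earlier results of these data known. Any link between the Flrt genes and the fall of the feedback genes was not tested. The count was 4 without WT 1 and 4 without KO 2.

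**Figure D4:**
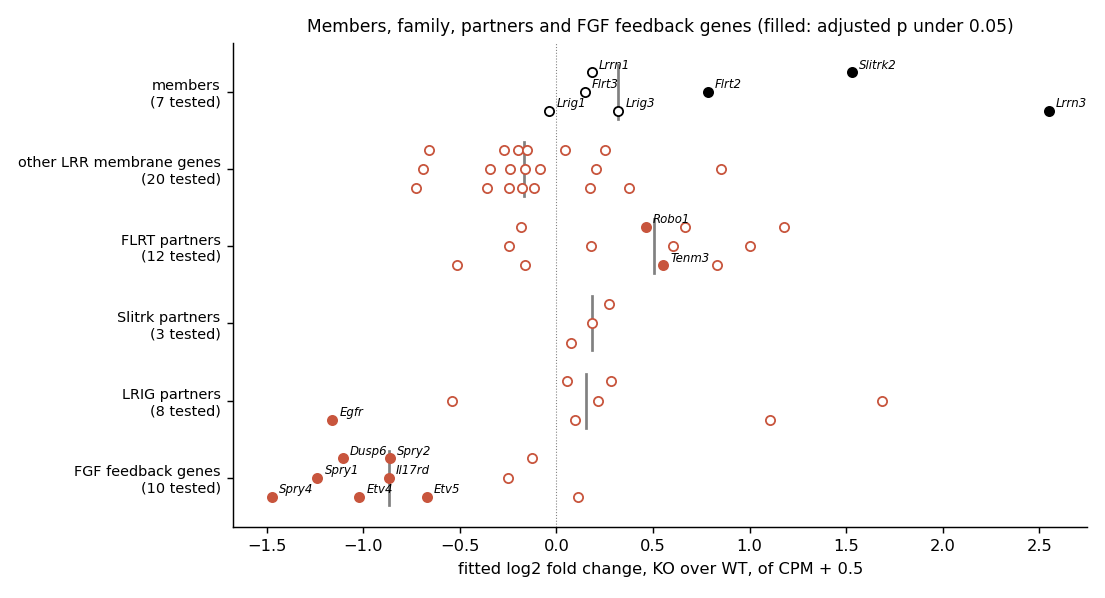
Fitted log2 FC of KO over WT on the CPM + 0.5 scale for the 7 genes (black), other LRR membrane genes, partner genes and FGF feedback genes (red), with 1 point a gene and a grey line at each list's median. Filled points had an adjusted p under 0.05 over all 12996 tested genes, and vertical offsets only separate points. Egfr and 7 FGF feedback genes lie to the left as called, Tenm3 and Robo1 to the right, and 0 of 20 other LRR membrane genes are filled. Those 20 are what was left after the 7 genes had been chosen with the contrast known.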

How the data were processed

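RNA-seq values of 5 WT and 6 M1KO;M2KO HL samples were used. Per the labels and the study's methods, the authors removed adaptors with cutadapt 1.3, estimated expected counts with RSEM 1.2.3 on GRCm38, applied TMM and ComBat, and deposited CPM for 13720 genes. Per those methods, these were the genes that reached 1 CPM in at least 4 samples. A gene absent from the table may thus have been below that level rather than not assayed. Applied again to the deposited, batch-corrected values, the same level kept 12996 genes. Columns summed to 754534 to 805762 CPM. Read totals are unknown, so no counting interval is given, and the sources used here do not give the design passed to ComBat, so the residual spread may be understated.

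For the 12996 genes that reached 1 CPM in 4 or more libraries, log2(CPM + 0.5) values entered limma 3.58.1 under R 4.3.3. Terms were genotype and library set, with a variance trend and 8 residual degrees of freedom, and p-values were adjusted by Benjamini-Hochberg over all genes, two-sided. The fit was tested on simulated data. Each embryo is 1 replicate. Exon lengths came from GENCODE M21. The genes, lists and tests were chosen with earlier results of these data known. Named genes are the 7 members, the targeted genes, up to 4 genes of each list with the smallest p, the 3 nearest profiles of each member and genes behind counts of 5 or fewer; of the cell type marker lists mainly summed levels are given. Slitrk6, Lrrn4, Lrig2, the genes within 500 kb and the overlapping genes were added after values had been seen. Of the genes this rule gives, 1 nearest profile is not reported here. Tables and plots were made in Python 3.11.15 (matplotlib 3.10.9, pandas 2.3.3, numpy 2.4.6).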

Additional observations from a re-analysis of the deposited data

Results flagged for a closer look

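Lrrn3 in WT 4, at 10.7 CPM, stood apart from the other 4 WT libraries (4.06 to 5.62 CPM), the gap being 0.764 of the group's range. It was the 1 outlying library found among 14 groups (7 genes in WT and in KO), and chance gives about 1 in 20 groups. Without WT 4 the log2 FC of Lrrn3 was 2.74, beside 2.55 with all libraries.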

How the results depend on the processing

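With 1 library left out, the count of genes called over all genes (272) ranged from 106 to 337, that of other LRR membrane genes (0) from 0 to 0, that of partner genes (3) from 1 to 7, that of FGF feedback genes (7) from 4 to 7 and that of genes differing between the sets (0) from 0 to 46, the latter without KO S_280. With the Ovation set alone these counts were 150, 1 (Slitrk6), 4 and 4, the 4 partner genes being Unc5c, Tenm4, Robo2 and Ret, and the log2 FC of Lrrn1 was 0.94. With the NEBNext set alone 3 genes were called, 0 of them partner or FGF feedback genes, and without KO S_280 and KO S_284, which leaves litter 1 in the Ovation set beside the whole NEBNext set, 102. A robust variance gave 13 genes differing between the sets. With 1 library left out, log2 FC ranged from 2.39 to 2.92 for Lrrn3, 0.68 to 0.90 for Flrt2, 1.32 to 1.76 for Slitrk2, 0.08 to 0.22 for Flrt3, 0.22 to 0.44 for Lrig3, -0.33 to 0.30 for Lrig1 and -0.04 to 0.47 for Lrrn1. Over all alternatives Lrrn3 was called in 23 of 24 (not in the NEBNext set alone), Flrt2 in 22 of 24 (not in the NEBNext set alone or without KO S_280 and KO S_284) and Slitrk2 in 11 of 23, since it could not be fitted with a filter of 5 CPM. These genes were chosen on this contrast, so their calls are a description and nothing is read from them. The cause of the changes between settings was not tested. A replicate block on the NEBNext numbers 3 and 4 gave 290 genes over all genes and 7 partner genes. Deviations of WT 3 and KO 3 correlated at 0.20 and those of WT 4 and KO 4 at -0.04. Pairs with different numbers ranged from -0.16 (WT 4 and KO 3) to 0.21 (WT 4 and KO 2). The labels do not say whether an equal number marks a shared litter, and these correlations cannot decide it. Depth is unknown, and low levels, such as those of Slitrk2 in WT, have folds that depend on the pseudocount.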
